A study of Mus musculus with 6 samples.

Results

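The Zfp36, Btg and Tob genes encode proteins that shorten the life of messenger RNAs. Of the 8 genes listed, namely Zfp36, Zfp36l1, Zfp36l2, Btg1, Btg2, Btg3, Tob1 and Tob2, 7 were measured, each by 1 probe set that carried its symbol, among 20163 genes with a symbol. Btg3 was not analysed here. The members were taken by symbol, from a list drawn up with earlier results of these data known.

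Zfp36 proteins (Zfp36 is also called tristetraprolin) bind AU-rich elements in the 3' ends of mRNAs through a pair of CCCH zinc fingers and bring in the CCR4-NOT complex, which removes the poly(A) tail. Btg and Tob proteins share a conserved amino-terminal domain that holds the deadenylase subunits Cnot7 and Cnot8, and Tob proteins also bind the poly(A)-binding protein. Zfp36 and Btg2 are known as immediate early genes in many cells, Btg2 also as a p53 target, Zfp36 has been described to destabilise Myod1 mRNA in quiescent muscle stem cells, and Tob1 has been described to restrain BMP signalling through SMADs in mouse osteoblasts.

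The arrays compared 3 cultures given BMP6 with 3 given vehicle. All were muscle stem cells of female C57BL/6J mice aged 6 to 8 weeks, grown on Matrigel for 2 days and then held for 6 h without serum and with the BMP-binding receptor fragment ALK3-Fc at 200 ng/ml, so both groups had been depleted of BMP. The BMP6 cultures then received 100 ng/ml BMP6 for 1 h, and the vehicle cultures the solvent in which BMP6 is dissolved. The comparison asks which transcripts had responded at 1 h. Values are log2 RMA expression as the authors made it, on which a difference of 1 is 2-fold, and a gene was called at a limma adjusted p under 0.05 over all 20163 genes.

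Each replicate number was used once in each group, but the source names assign mouse 2 and not mouse 3 to vehicle replicate 3. Of the 10 muscle stem cell markers listed limma called 0, and 5 fold changes were above and 5 below 0. Over the 6 arrays Pax7 averaged 8.86, Myod1 12.20 and Myf5 10.07, while Chodl averaged 4.60. Myf5 had the largest difference of the 10, at 9.88, 9.58 and 10.23 in BMP6 and 10.19, 9.91 and 10.62 in vehicle (limma adjusted p = 1, and 0.297 with replicate number as a block). Of 8 BMP response genes 7 were called higher. Id1, among them, stood at 11.29, 11.27 and 11.35 in BMP6 and 9.64, 9.61 and 9.92 in vehicle (limma adjusted p = 0.000116). That list was chosen with earlier results of these data known, so the count is a description and no independent check of the response.

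No member of the families was called. Of the 7 genes, 0 passed in limma, where 17 of 20163 genes (0.0843%) did, all of them higher in BMP6. Unadjusted p-values were under 0.05 for Zfp36 alone (0.0339), against 3.17% of all genes, and 1.77% counting lower genes only. Of the 7 log2 fold changes 6 lay below 0, where 50.7% of all genes did, and their median was -0.075, against -0.0013 over all genes. That median was -0.14 without vehicle replicate 2 and -0.03 without vehicle replicate 1. A limma fit blocked on replicate number called 29 genes (0.144%), and again 0 of the 7.

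The sequences upstream of 3 members are shown because Zfp36 and Zfp36l1 had the lowest fold changes and Btg2 was the 1 member measured above vehicle. They are the 250 bases before the gene's start in RefSeq on GRCm38.p6, 5' to 3' on the gene's strand. RefSeq windows were matched for 7 of the 8 listed genes, and the one without a window was Zfp36l2, a measured member. Capitals mark 4 motifs searched on both strands: the cyclic AMP response element TGACGTCA, a GC-rich element bound by SMAD proteins, GGCGCC, the TATA box TATAAA, and the CArG box, the site of serum response factor.
Zfp36 (chr7:28379229-28379478, minus strand): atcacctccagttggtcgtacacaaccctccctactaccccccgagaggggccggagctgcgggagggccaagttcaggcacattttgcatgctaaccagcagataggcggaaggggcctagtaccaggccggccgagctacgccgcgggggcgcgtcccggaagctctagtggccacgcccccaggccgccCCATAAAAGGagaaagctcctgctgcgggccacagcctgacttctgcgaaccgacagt
Zfp36l1 (chr12:80113014-80113263, minus strand): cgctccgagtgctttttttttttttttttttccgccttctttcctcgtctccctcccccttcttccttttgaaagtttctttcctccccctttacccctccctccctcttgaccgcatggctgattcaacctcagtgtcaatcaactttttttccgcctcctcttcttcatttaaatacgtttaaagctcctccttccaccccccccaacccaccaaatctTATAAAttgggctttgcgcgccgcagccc
Btg2 (chr1:134079156-134079405, minus strand): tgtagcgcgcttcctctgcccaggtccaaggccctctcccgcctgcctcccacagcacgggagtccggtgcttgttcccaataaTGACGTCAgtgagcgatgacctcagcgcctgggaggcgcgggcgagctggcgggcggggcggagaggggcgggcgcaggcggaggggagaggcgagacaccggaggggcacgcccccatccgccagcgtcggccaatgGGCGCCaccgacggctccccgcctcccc

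In the Zfp36 window the capitals are a match to the CArG box, 49 to 58 bases before the start, which 1.47% of the 32851 windows of this length hold. In the Zfp36l1 window they are a TATA box 24 to 29 bases before the start (12.4% of windows). In the Btg2 window they are a cyclic AMP response element 159 to 166 bases before the start (1.55% of windows) and a GGCGCC 23 to 28 bases before it (9.59% of windows). Among the windows of the other measured members, Btg1 and Tob1 held a TATA box, and Tob2 held none of the 4. A match describes letters and not a bound site.

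Zfp36, the AU-rich element binder best known for destabilising Tnf mRNA, was the member nearest to a call. It stood at 7.41, 7.43 and 7.34 in BMP6 and at 7.85, 7.44 and 7.65 in vehicle. All BMP6 values lay below all vehicle values, but the gap between the highest BMP6 array and the lowest vehicle array was 0.010, and vehicle replicate 2 stood with the BMP6 arrays. Groups that did not overlap, with BMP6 lower, were found for 1 of the 7 members and for 3.86% of all genes. The log2 fold change was -0.25 (SE 0.10), or 0.84-fold with an unadjusted 95% interval of 0.71 to 0.98, and after adjustment over all genes it was not called (limma adjusted p = 1). Without vehicle replicate 1 the log2 fold change was -0.15 (limma adjusted p = 1), and without vehicle replicate 2 it was -0.36 (limma adjusted p = 0.999). Over 20 alternatives the limma adjusted p lay between 0.731 and 1.

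Markers of other cell types of muscle were also measured, and limma called 0 of them. Fold changes were below 0 for 6 of 8 fibro-adipogenic, 6 of 8 immune, 6 of 7 pericyte and smooth muscle, 5 of 6 Schwann cell and 2 of 6 endothelial markers. Of the fibro-adipogenic markers, Clec3b and Smoc2 were measured lower with unadjusted p-values under 0.05 (1.77% of all genes), and the groups did not overlap, BMP6 lower, for these 2 and for Ly6a, the last by 0.007 (3.86% of all genes). Pi16 and Dpp4, of the same list, had fold changes above 0 and averaged 5.55 and 4.85. Lum, with a fold change below 0, averaged 3.42, and Clec3b averaged 5.90. Of 1014 olfactory receptor genes, taken as a silent reference, 95% lay below 5.56. Other lists held such markers too, named after their values were seen. Groups did not overlap, BMP6 lower, for the immune marker Cd3e (limma unadjusted p = 0.0497), the endothelial marker Pecam1 and the Schwann cell marker Foxd3. For Pecam1 the gap was 0.010 and the mean 5.59, close to 5.56. The pericyte marker Cspg4 went the other way, at 0.18 (limma unadjusted p = 0.0489). The summed log2 level of the fibro-adipogenic list ran from 45.0 to 46.9 in BMP6 and from 46.8 to 47.1 in vehicle. That of the immune list ran from 41.2 to 42.1 in BMP6 and from 41.6 to 42.9 in vehicle. Every list of these other cell types held markers below 5.56, so the counts and sums include signal near background. The part of these cells in the Zfp36 values was not tested. In such bulk samples fewer cells of a type and less RNA per cell cannot be told apart.

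Zfp36l1, a paralog with the same RNA-binding fingers, stood at 7.56, 7.36 and 7.65 in BMP6 and at 7.87, 7.52 and 7.78 in vehicle. The groups overlapped, since vehicle replicate 2 was lower than BMP6 replicates 1 and 3. The difference was -0.20 on the log2 scale (SE 0.11), or 0.87-fold with a 95% interval of 0.73 to 1.03, and was not called (limma adjusted p = 1). Zfp36l2, the third family member, which limits proliferation in thymocytes together with Zfp36l1, stood at 10.22, 10.27 and 10.22 in BMP6 and at 10.43, 10.18 and 10.33 in vehicle. Vehicle replicate 2 was the lowest of its 6 arrays, and the fold change was 0.95 (95% interval 0.83 to 1.08). The mouse has a further paralog, Zfp36l3, known from placenta and yolk sac, whose probe set averaged 5.41, within the range below 5.56 that held 95% of 1014 olfactory receptor genes, a class taken as a silent reference after the values were seen. All 7 members lay above that level.

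**Figure D1:**
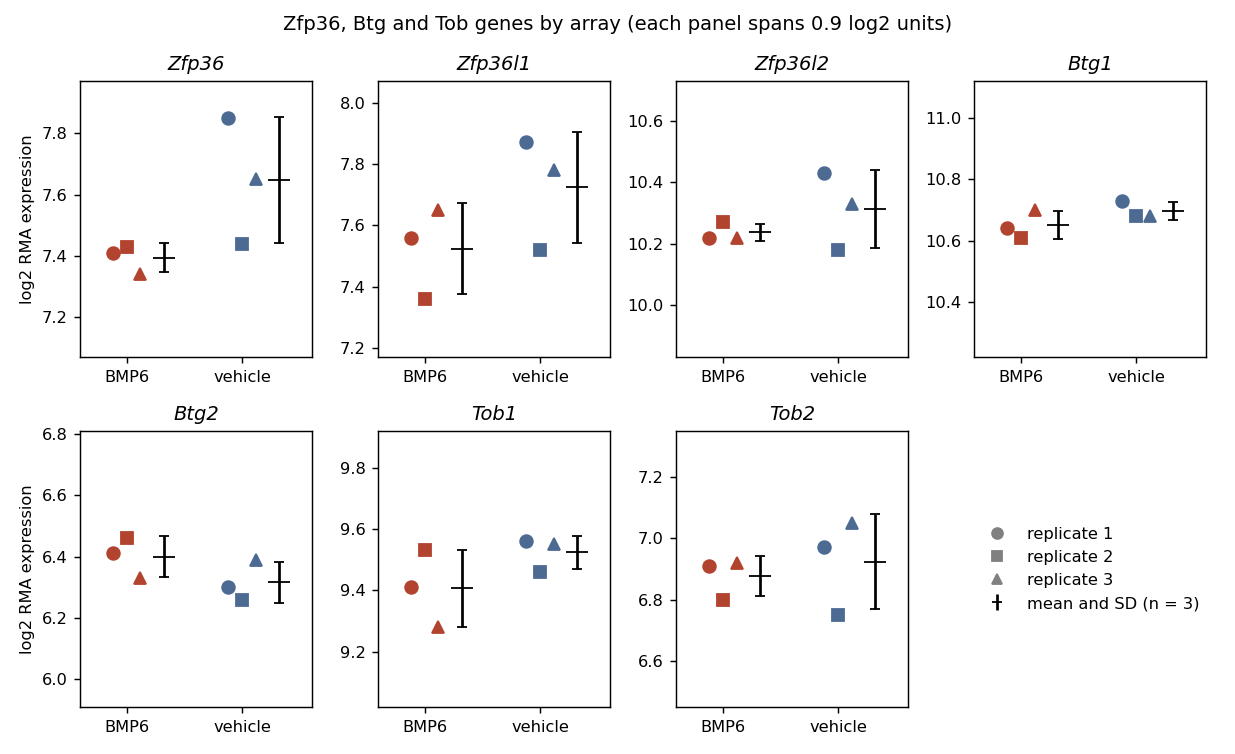
Log2 RMA expression of the 7 measured genes on each array, BMP6 left and vehicle right, with symbols for replicates 1 to 3 and bars for the mean and SD (n = 3); every panel spans 0.9 log2 units around its own centre. Zfp36 is the panel in which the groups do not overlap, by 0.010, and its vehicle values spread over 0.41 while its BMP6 values spread over 0.09.

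Btg1, an antiproliferative adaptor of the deadenylase, had the narrowest values of the 7. It stood at 10.64, 10.61 and 10.70 in BMP6 and at 10.73, 10.68 and 10.68 in vehicle. The whole range over the 6 arrays was 0.13, and the fold change of 0.97 had a 95% interval of 0.87 to 1.08. Btg2, the stress-induced paralog, stood at 6.41, 6.46 and 6.33 in BMP6 and at 6.30, 6.26 and 6.39 in vehicle. Here BMP6 replicate 3 was below vehicle replicate 3, and the other BMP6 arrays were above every vehicle array. The difference was 0.08 on the log2 scale (SE 0.08), or 1.06-fold with a 95% interval of 0.94 to 1.19, and was not called (limma adjusted p = 1). Btg4, the paralog known from oocytes, averaged 4.03, inside the range of the olfactory receptor genes.

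Tob1, which joins the deadenylase to the poly(A)-binding protein, stood at 9.41, 9.53 and 9.28 in BMP6 and at 9.56, 9.46 and 9.55 in vehicle. BMP6 replicate 2 lay above vehicle replicate 2, so the groups overlapped, and the fold change was 0.92 (95% interval 0.81 to 1.05). Tob2, its paralog, stood at 6.91, 6.80 and 6.92 in BMP6 and at 6.97, 6.75 and 7.05 in vehicle. The vehicle arrays held both its highest and its lowest value, and the fold change was 0.97 (95% interval 0.84 to 1.12). Without vehicle replicate 3 its log2 fold change was 0.02 and without BMP6 replicate 2 it was -0.00, so it has no settled direction.

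The intervals state how large a response at 1 h these arrays allow. The highest upper bound of the 7 was that of Btg2, 1.19-fold, and the lowest lower bound that of Zfp36, 0.71-fold. The lower bounds of the 7 called BMP response genes ran from 1.53-fold for Atoh8, a bHLH factor, and 1.57-fold for Smad6 to 2.91-fold for Smad7, inhibitory SMADs both. Those of Id1, an inhibitor of myogenic bHLH factors, and Hes1, a Notch-associated repressor, were 2.58-fold and 2.81-fold. The lower bound of Id2, which was not called, was 1.18-fold, just under the upper bound of Btg2. The differences between genes were not themselves tested.

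**Figure D2:**
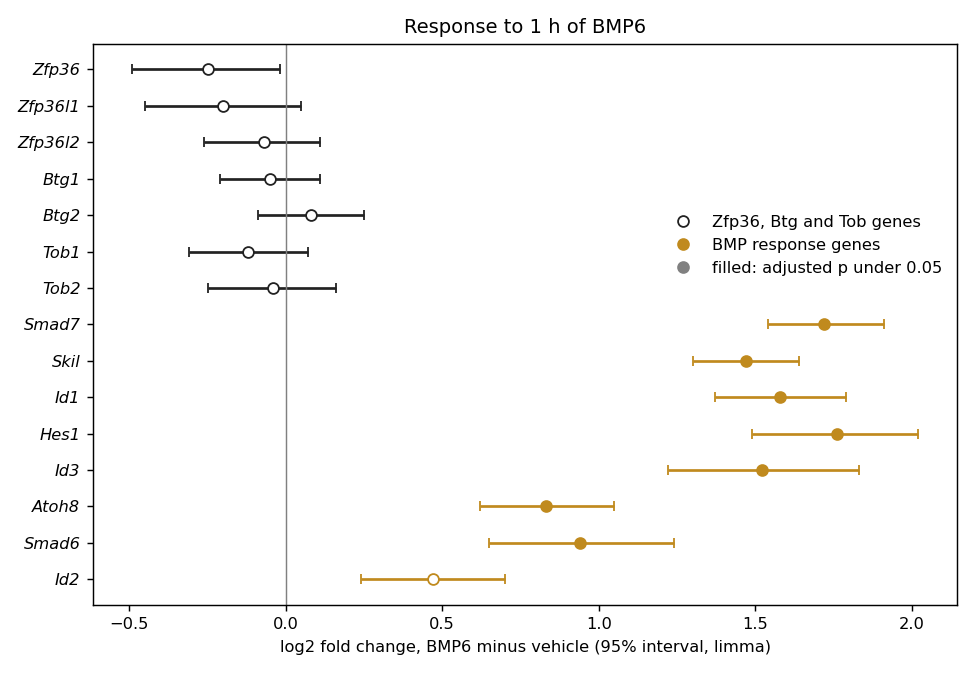
Log2 fold change of BMP6 over vehicle with its 95% limma interval for the 7 measured genes (dark) and for 8 BMP response genes (ochre); filled points passed an adjusted p of 0.05 over all genes and open points did not. The dark intervals lie between -0.49 and 0.25, and those of the 7 called BMP response genes start above 0.6.

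Part of the spread between arrays was shared by several members. Vehicle replicate 1 was the highest of the vehicle arrays for 5 of the 7 genes, and vehicle replicate 2 was the lowest for 6. After each group's mean was removed, 17 of the 21 pairs of members correlated above 0 over the 6 arrays, with a median r of 0.43. Zfp36 and Zfp36l2 had the highest r, 0.98, followed by Zfp36l1 with Tob2 at 0.87 and Btg2 with Tob1 at 0.82. The lowest was -0.70, for Btg1 with Btg2. These are descriptions of 6 arrays that share RNA preparation and normalisation, and carry no test. The same counts over all genes are not given here, so the pattern cannot be called particular to the members.

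**Figure D3:**
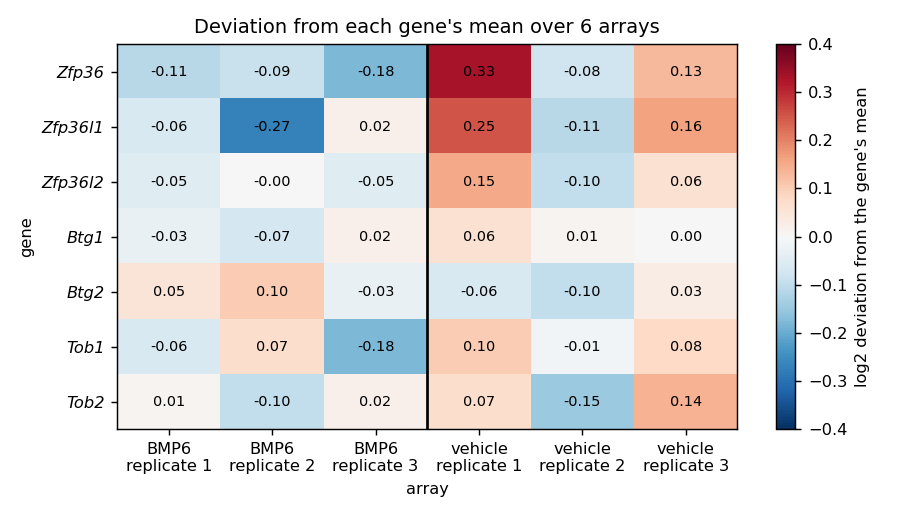
Deviation of each of the 7 genes from its own mean over the 6 arrays, in log2 units, BMP6 arrays left of the line and vehicle arrays right of it. Vehicle replicate 1 is above the mean for every gene except Btg2 (Zfp36 0.33, Zfp36l1 0.25), and vehicle replicate 2 is at or below it for every gene except Btg1 (Zfp36 -0.08, Tob2 -0.15).

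Among 10075 other genes above the median level, those whose values over the 6 arrays were most like the 3 widest-ranging members were Mapk8ip1, Lyplal1 and Efhd2 for Zfp36 (Pearson r = 0.987, 0.986 and 0.981). For Zfp36l1 they were Zc4h2, Cadm4 and Txndc16 (r = 0.982, 0.981 and 0.980), and for Tob2 Zbtb26, Hdac2 and Clstn1 (r = 0.988, 0.988 and 0.986). With 6 arrays and so many candidates such values are a description only.

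The enzymes that these adaptors recruit were measured close to vehicle. Limma called 0 of 12 CCR4-NOT genes, and the unadjusted p was under 0.05 for 0 of them. Their log2 fold changes lay between -0.06 and 0.09 with a median of 0.047, and 10 of the 12 were positive. Cnot8, a catalytic subunit that Btg and Tob proteins bind, stood at 0.09 (SE 0.08) and the structural subunit Cnot2 at 0.09 (SE 0.09), while Cnot6 and Cnot6l, catalytic subunits of the other class, stood at 0.08 and 0.07. Limma also called 0 of 9 other deadenylases and poly(A)-binding proteins, with 0 unadjusted p-values under 0.05. The highest was Pan3, the adaptor of the Pan2 deadenylase, at 0.11 (SE 0.08), followed by Pan2 and the termination factor Gspt1 at 0.05 each and Paip1 at 0.02.

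The steps after deadenylation and the other RNA-stability proteins gave the same counts of calls. Limma called 0 of 14 decapping and exonuclease genes, whose median was 0.048, and the unadjusted p was under 0.05 for 0 of them. The helicase Ddx6 stood at 0.13 (SE 0.08) and the 5'-to-3' exonuclease Xrn1 at 0.14 (SE 0.09), with Dcp1a and the decapping enzyme Dcp2 at 0.11 and 0.09. Of 19 other sequence-specific RNA-stability proteins limma called 0, and 16 had a positive fold change. Unadjusted p-values under 0.05 were found for 2 of the 19, the Roquin proteins, which bind stem-loops in inflammatory mRNAs. Rc3h1 stood at 9.69, 9.68 and 9.65 in BMP6 and at 9.49, 9.46 and 9.57 in vehicle, and Rc3h2 at 8.69, 8.71 and 8.77 in BMP6 and at 8.44, 8.52 and 8.65 in vehicle. In neither did the groups overlap, and neither was called (log2 fold changes 0.16 and 0.18, limma adjusted p = 1 for both). Groups that did not overlap, with BMP6 higher, were found for 4 of the 19 genes and for 2 of the 14 decapping and exonuclease genes. The share of all genes in this direction is not given here. The endonuclease Zc3h12a stood at 0.17 (SE 0.11) and Cpeb1, which controls poly(A) tail length, at 0.13 (SE 0.10).

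**Figure D4:**
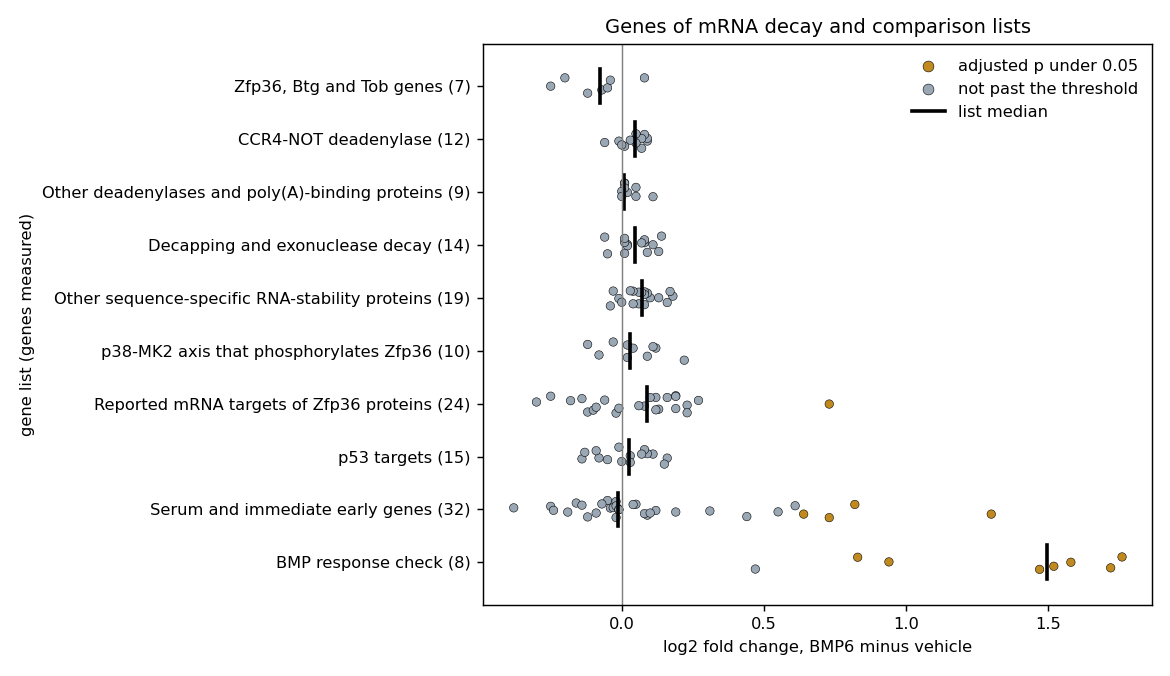
Log2 fold change of BMP6 over vehicle for each measured gene (points, shifted up or down only to be visible) in the members and 9 gene lists (the SMADs and partners are not drawn), with the list median as a bar; ochre points passed an adjusted p of 0.05 over all genes. The 7 members span -0.25 to 0.08 and the 12 CCR4-NOT genes -0.06 to 0.09, and the ochre points lie in the lists of reported Zfp36 targets, immediate early genes and BMP response genes.

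The p38 pathway acts upstream of Zfp36, since the kinase MK2 (Mapkapk2) phosphorylates the protein and so holds its activity back, which an mRNA level does not show. Limma called 0 of 10 genes of this axis, and the unadjusted p was under 0.05 for 1 of them. It was Map2k3, a kinase that activates p38, at 10.55, 10.53 and 10.38 in BMP6 and 10.34, 10.28 and 10.20 in vehicle (log2 fold change 0.22, SE 0.08, limma adjusted p = 1). Its groups did not overlap, which with BMP6 higher held for 2 of the 10 genes. The others nearest to a call were the 14-3-3 gene Ywhaz at 0.12, the p38 kinase Mapk14 at 0.11 and Mapk11 at -0.12.

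Of 24 mRNAs reported elsewhere as targets of Zfp36 proteins, 1 rose. Dusp1, a MAP kinase phosphatase, averaged 9.69 ± 0.11 in BMP6 and 8.96 ± 0.07 in vehicle (SD, n = 3 each), 1.66-fold (limma adjusted p = 0.0115). It did not pass in 5 of the 20 alternatives. Unadjusted p-values under 0.05 were found for 5 genes measured higher, Dusp1 among them, and 2 measured lower. Of the 24 fold changes 14 were positive, with a median of 0.089. Apart from Dusp1, the genes of this kind, named after their values were seen, were Notch1, Vegfa, Plaur and Il1b on the higher side (log2 fold changes 0.23, 0.23 and 0.19 for the first 3) and Myc and Tnf on the lower side (-0.25 and -0.30), all with a limma adjusted p of 1. Il1b averaged 4.95, inside the range of the olfactory receptor genes, so no difference is given for it, and Tnf was close to that range, with values from 5.51 to 6.09. Il6, Il10, Csf2 and Cxcl2 also averaged inside that range, so the counts and the median of the 24 include signal near background. Myod1 stood at 12.30, 12.30 and 12.25 in BMP6 and at 12.14, 12.05 and 12.18 in vehicle. Its groups did not overlap, which with BMP6 higher held for 6 of the 24 genes. The difference of 0.16 (SE 0.07) was not called (limma adjusted p = 1). Of the 24 genes 5 also stand in the immediate early or p53 lists, and Myod1 is also a muscle stem cell marker.

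As immediate early genes Zfp36 and Btg2 can be set beside 32 others of that kind, 4 of which rose and 0 of which were called lower. Klf10, a TGF-beta family induced repressor, rose 2.47-fold (95% interval 2.06 to 2.95), Ccn1, a secreted matrix protein, 1.77-fold (1.52 to 2.07), Dusp1 1.66-fold (1.46 to 1.88) and Gadd45b, a stress-response gene, 1.55-fold (1.38 to 1.75). Ccn1 and Gadd45b were not called in 7 and 8 of the 20 alternatives. Unadjusted p-values were under 0.05 for 8 of the 32 genes on the higher side, the 4 called ones among them. They were also under 0.05 for 3 on the lower side. The uncalled ones were named after their values were seen. On the higher side they were Csrnp1 at 1.52-fold (limma adjusted p = 0.0675), Fosb at 1.47-fold, Junb at 1.36-fold and Klf4 at 1.24-fold. With replicate number as a block Csrnp1 and Fosb passed (limma adjusted p = 0.0133 and 0.0143). On the lower side were Myc at 0.84-fold, Dusp5 at 0.85-fold and Egr1 at 0.77-fold (limma adjusted p = 1 for each), beside 0.84-fold for Zfp36. The list's median was -0.014, and 17 of its 32 genes were below 0. The upper bounds of Zfp36 and Btg2, 0.98-fold and 1.19-fold, lay below the lower bounds of the 4 called genes, which were picked as the highest of the list, and the difference itself was not tested. Limma called 0 of the 15 p53 targets, and the unadjusted p was under 0.05 for 0 of them. Mdm2, which degrades p53, stood at 0.16, Ccng1 at 0.11 and the cell cycle inhibitor Cdkn1a at -0.14, while the death receptor Fas averaged 5.18, inside the range of the olfactory receptor genes.

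Of the SMADs and of the proteins that Tob and Btg proteins are described to bind, 10 genes in all, 2 rose, the inhibitory SMADs Smad6 (log2 fold change 0.94, limma adjusted p = 0.0403) and Smad7 (1.72, limma adjusted p = 3.93e-05). Smad6 did not pass in 10 of the 20 alternatives. These 2 genes also stand in the list of BMP response genes.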

How the data were processed

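The deposited values were log2 expression values, 1 for each of 34760 probe sets and each of 6 arrays, made by the authors with RMA in oligo (per the submitters' processing notes). In RMA the background is removed, arrays are brought to the same distribution and each set's probes are combined, so a shift shared by most transcripts is not visible. For the versions, array type, genome build and symbol source: not given in the sources used here.

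A gene with several probe sets (907 genes) was read at the one with the highest mean over the 6 arrays, which gave 20163 genes, and dim probe sets were kept. The fit, two-sided, used lmFit and eBayes of limma 3.58.1 (R 4.3.3) on all 6 arrays without covariates, with Benjamini-Hochberg adjustment over all genes, and was tested on simulated data. It had 4 residual and 5.72 prior degrees of freedom. SDs are over 3 arrays. The p-values set the difference between groups against the spread between these cultures, moderated over all genes. Whether that spread is one between separate mice is not settled by the source names.

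The members, gene lists and motifs were chosen with earlier results of these data known. Named genes were the members, the called genes of each list or, where none was called, up to 4 with the lowest p, with Myod1, Dusp1, Id1, Smad7 and Hes1 whatever their result; those outside this rule are said to be so. Arrays carry no depth, so their number limits the precision. Array medians lay between 6.02 and 6.10.

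The replicate numbers were checked as pairs. After group means were removed, arrays of the same number correlated at 0.31, 0.05 and 0.43 for numbers 1, 2 and 3. BMP6 and vehicle arrays of different numbers correlated at -0.44 to 0.18. Among them, vehicle replicate 3 and BMP6 replicate 2, which share a mouse in the source names, stood at 0.02. The column headers share a code within each of the 3 numbers, while the source names give the same mouse to both arrays of numbers 1 and 2 but not of number 3. Because headers and source names disagree for number 3, the main fit did not take the numbers as established pairs. A fit blocked on them is given beside it.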

Additional observations from a re-analysis of the deposited data

How the results depend on the processing

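In all 20 alternatives 0 of the measured members were called, with adjusted p values of 0.731 or more, the lowest for Zfp36 without vehicle replicate 3. Their median log2 fold change stayed below 0 and moved by less than the spread between replicates (SD 0.078) each time. Against -0.075 in the main fit, it changed by a factor above 1.5 without vehicle replicate 2 (-0.14) and without vehicle replicate 1 (-0.03). Leaving out 1 of 3 arrays can hardly move it further than that spread, so those settings say little on its stability. Btg2 lies below the median level, so the setting restricted to genes above it gave no value for Btg2. Zfp36 ranged from -0.36 to -0.15 and had an unadjusted p under 0.05 in 12 of the 20. Zfp36l1 ranged from -0.31 to -0.12 and did so in 4 of 20, with the replicate block among them (unadjusted p = 0.0225, adjusted p = 0.791; for Zfp36 0.0192 and 0.783). With replicate number as a block no call of a member changed. When single arrays were left out, Tob2 ranged from -0.13 to 0.02, turning sign without vehicle replicate 3, and Paip1 from -0.03 to 0.08, turning sign without vehicle replicate 2. The count of genes called over the whole table moved more. It was 17 as reported, 7 to 15 with arrays left out (BMP6 replicate 2 gave 7, BMP6 replicate 1 gave 10, and leaving out vehicle replicate 1 or 2 gave 9), 29 with replicate number as a block, 32 with it as a random block, 30 among genes above the median level, 26 with arrays centred on their medians, 26 with an intensity trend in the prior variance, and 3 over all probe sets of the table, which tests 34760 and has 2.53 prior degrees of freedom. The cause of these shifts was not tested for any setting. Probe sets near the array median, as those of Btg2 and Tob2 are, can understate a change.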
